A study of Mus musculus with 15 samples.

Results

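The cells described here are cells of gastrulating mouse embryos that carried RNA of both Msgn1 and Tbx6, the transcription factors by which presomitic mesoderm is recognised, and none of Meox1, a homeobox gene of somites. A cell was taken when it held at least 1 UMI of Msgn1, at least 1 UMI of Tbx6 and 0 UMIs of Meox1, where a UMI (unique molecular identifier) tags a single captured RNA molecule. This rule found 4218 of the 93701 retained cells, of which 4133 came from control and 85 from Mesp1 KO embryos. Because the rule reads these 3 genes, their levels in the cells are descriptions and carry no test. The cells are called Msgn1+ Tbx6+ cells below, since Hes7, a further defining gene of presomitic mesoderm, was missing from those of some embryos.

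Whole embryos were dissociated and each gave a droplet library of its own, read from the 5′ ends of transcripts. There were 12 control and 3 Mesp1 KO embryos on a C57BL/6J background, and every embryo carried the Hipp11 Smarcd3-F6::eGFP transgene, which marks early cardiac precursors. Mesp1 KO embryos had a Cre insertion in both copies of Mesp1 (Mesp1 Cre/Cre), so the gene was disrupted in all cells, and control embryos kept at least 1 wild-type copy (Mesp1 Cre/+ or Mesp1 +/+). Cre also switched on the Rosa26R Ai14 lineage reporter in descendants of Mesp1-expressing cells, except in 2 controls without it, the early E7.5 and the first late E7.5 embryo. The early group held 5 controls of E6.0 to E6.5 and an E6.5 KO, the middle group 3 controls (E7.0, late E6.5 and early E7.5) and an E7.0 KO, and the late group 4 controls (2 of late E7.5 and 2 of E7.75) and a late E7.5 KO. With 1 KO embryo per stage, no spread between KO embryos could be measured.

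Presomitic mesoderm forms as cells leave the primitive streak and the tail bud, and it is the tissue that is later cut into somites. Wnt and Fgf signals are high at its posterior end and hold the cells immature, while retinoic acid made by Aldh1a2 in the somites and anterior mesoderm opposes them. In between, genes of the Notch pathway, with the repressor Hes7 and the ligand Dll1, cycle as the segmentation clock. Mesp1, the gene disrupted here, is switched on in the first mesoderm to leave the streak, and its neighbour Mesp2 acts later at the front of the presomitic mesoderm.

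The promoters of the 4 genes that mark presomitic mesoderm, Msgn1, Tbx6, Hes7 and Dll1, are shown because the cells were chosen and checked by them. Each is the RefSeq sequence upstream of the gene on GRCm38.p6, 5′ to 3′ on the gene's strand, and ends before the first base that either RefSeq or the mm10 annotation used for the positions (GENCODE) counts to the gene. Capitals mark matches, on either strand, to the letters CTTTG of Tcf and Lef factors (the nuclear arm of Wnt signalling), AGGTGT of T-box factors, TGGGAA of Rbpj (the nuclear partner of Notch) and TTTATG of Cdx factors, and neighbouring matches run together. The windows are chr12:11208973-11209198 (minus strand) for Msgn1, chr7:126781233-126781482 (plus) for Tbx6, chr11:69120203-69120403 (plus) for Hes7 and chr17:15376933-15377182 (minus) for Dll1, the outer of 2 starts that RefSeq gives.
Msgn1: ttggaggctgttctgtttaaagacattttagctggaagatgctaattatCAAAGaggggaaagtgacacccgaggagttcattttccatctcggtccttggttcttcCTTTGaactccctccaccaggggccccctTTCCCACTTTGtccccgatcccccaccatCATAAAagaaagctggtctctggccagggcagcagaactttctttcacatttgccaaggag
Tbx6: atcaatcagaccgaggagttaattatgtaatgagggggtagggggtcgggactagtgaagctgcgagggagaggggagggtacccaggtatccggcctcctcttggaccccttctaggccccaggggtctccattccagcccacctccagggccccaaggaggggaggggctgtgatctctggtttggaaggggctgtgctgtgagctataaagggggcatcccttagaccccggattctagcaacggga
Hes7: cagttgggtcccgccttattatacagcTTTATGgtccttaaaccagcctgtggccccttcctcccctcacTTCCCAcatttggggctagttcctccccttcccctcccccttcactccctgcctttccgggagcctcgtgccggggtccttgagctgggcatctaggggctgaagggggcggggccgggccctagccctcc
Dll1: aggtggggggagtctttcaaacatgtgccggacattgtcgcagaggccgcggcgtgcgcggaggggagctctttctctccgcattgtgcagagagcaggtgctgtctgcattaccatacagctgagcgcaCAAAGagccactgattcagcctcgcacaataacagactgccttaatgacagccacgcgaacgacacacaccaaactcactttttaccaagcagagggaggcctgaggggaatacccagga

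The Msgn1 window held 3 Tcf/Lef matches, at 108, 143 and 201 bases before the RefSeq start, an Rbpj match at 114 and a Cdx match at 85. Hes7 had an Rbpj match at 180 and a Cdx match at 223 bases, Dll1 had a Tcf/Lef match at 120 bases, and the Tbx6 window had none. Such short words are common. Among 32851 mouse promoter windows of 250 bases, 48.6% held the Tcf/Lef word, 21.6% the Rbpj word, 11.8% the T-box word and 10.8% the Cdx word, so a match is a description of the letters and not a binding site.

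The libraries held between 7383353 and 358439911 UMIs in retained cells. The Msgn1+ Tbx6+ cells had medians of 17018 to 44386 UMIs except in experiment 5, the experiment of the late KO and of E7.75 control replicate 1, with 4660 and 3885. Over the late KO the cells summed to 254455 UMIs from 56 cells, so that 1 UMI stands for 3.93 CPM (counts per 1000000 counts). Some genes split libraries in a way that followed neither stage nor genotype. Rac1 stood at 387 to 428 CPM in the 6 libraries of experiment 7 and at 38.6 to 101 CPM in the other 9, and the ribosomal pseudogene Rps2-ps13 at 2186 to 2793 CPM in 4 libraries and at 1.76 to 33.1 CPM in 11. Of 93771 distinct barcodes, 5487 occurred in more than 1 library, with at most 471 shared by a pair among 105 pairs. Doublet scores called 5 of the 56 late KO cells (8.93%) doublets, where 10.4% of all retained cells of that embryo were called. In the late controls they called 7.65%, 30.2%, 13.9% and 20.1% of the chosen cells. Of all retained cells of these controls, 5.95%, 19.2%, 11.9% and 12.1% were called.

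Mesp1 RNA checked the genotypes. It was at 0 UMIs in the chosen cells of all 3 KO embryos and at 0, 1 and 5 UMIs in the whole E6.5, E7.0 and late KO embryos, against 282 to 16093 UMIs in the control embryos. In the Msgn1+ Tbx6+ cells of controls it was highest at E6.0, with 1338 CPM in replicate 1, and stood at 277, 14.4, 8.33 and 42.9 CPM in the late controls.

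Msgn1+ Tbx6+ cells made up a small share of early embryos and a larger share of late controls, and they were scarce in the late KO. The E6.0 controls had 1.07% (16 cells), 0.347% (1 cell) and 0.784% (2 cells), the late E6.0 control 1.69% and the E6.5 control 3.63%. Middle controls had 1.69% at late E6.5, 6.27% at E7.0 and 6.60% at early E7.5. Late controls had 8.50% and 4.47% at late E7.5 and 2.86% and 8.88% at E7.75, so late controls differed widely among themselves and overlapped the middle ones.

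In the late KO, 56 of 12853 cells met the rule, 0.436% with an exact Clopper-Pearson interval of 0.329% to 0.565%, and every late control lay above it. The E7.0 KO, of experiment 8, had 0.597%, below the 3 middle controls, all of experiment 7. The E6.5 KO had 1.12%, within the early controls. It lay between the 0.784% and 1.69% of the controls of its own experiment 8, which were younger (E6.0 and late E6.0). The E6.5 control, of experiment 7, had 3.63%. The permutations below took no account of experiment or of age within a stage. The late difference was -5.74 percentage points against a control mean of 6.18% ± 2.98 (SD, n = 4), with a two-sided exact permutation p of 0.2, the smallest that 1 embryo against 4 allows. Averaged over the 3 stages the KO share was lower by 3.46 points (value -3.46), with an exact permutation p within stages of 0.0583, where 0.00833 was the smallest possible. With cells thinned to 2000 UMIs it was -1.18 points (exact permutation p = 0.175), and with at least 2 UMIs of each gene -2.35 points (p = 0.0917 by the same permutation).

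Depth and age moved with this comparison. The shallow E7.75 control of experiment 5 had the lowest share of the late controls, and the difference from it alone was -2.42 points. When every cell was thinned to 2000 UMIs, leaving out shallower ones, the late KO kept 13 of 10727 cells (0.121%) and the late controls 3.26%, 1.82%, 1.40% and 3.30%, so all 4 still lay above it. At that depth the embryos up to E7.0 had between 0% and 0.444% in either genotype and the early E7.5 control 3.41%, so the shares of younger embryos above rest on deeper cells. Asking for at least 2 UMIs of each gene left 2 late KO cells (0.0156%) and 0.571% to 6.33% in late controls. As a measure of background, the rule was put to cells with visceral endoderm genes, which should lack both genes. In the late KO 0 of 952 such cells met it, with Msgn1 in 4 and Tbx6 in 3 of them. This allows a share of up to 0.315%, not far below the 0.436% of the whole embryo. That limit is set by the number of cells and is not a measured share. In the late controls 0.323% to 0.917% met it. The median depths were 4943 UMIs and 6698 to 18103 UMIs. The part of the chosen cells that came from free RNA or shared droplets was not tested.

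**Figure D1:**
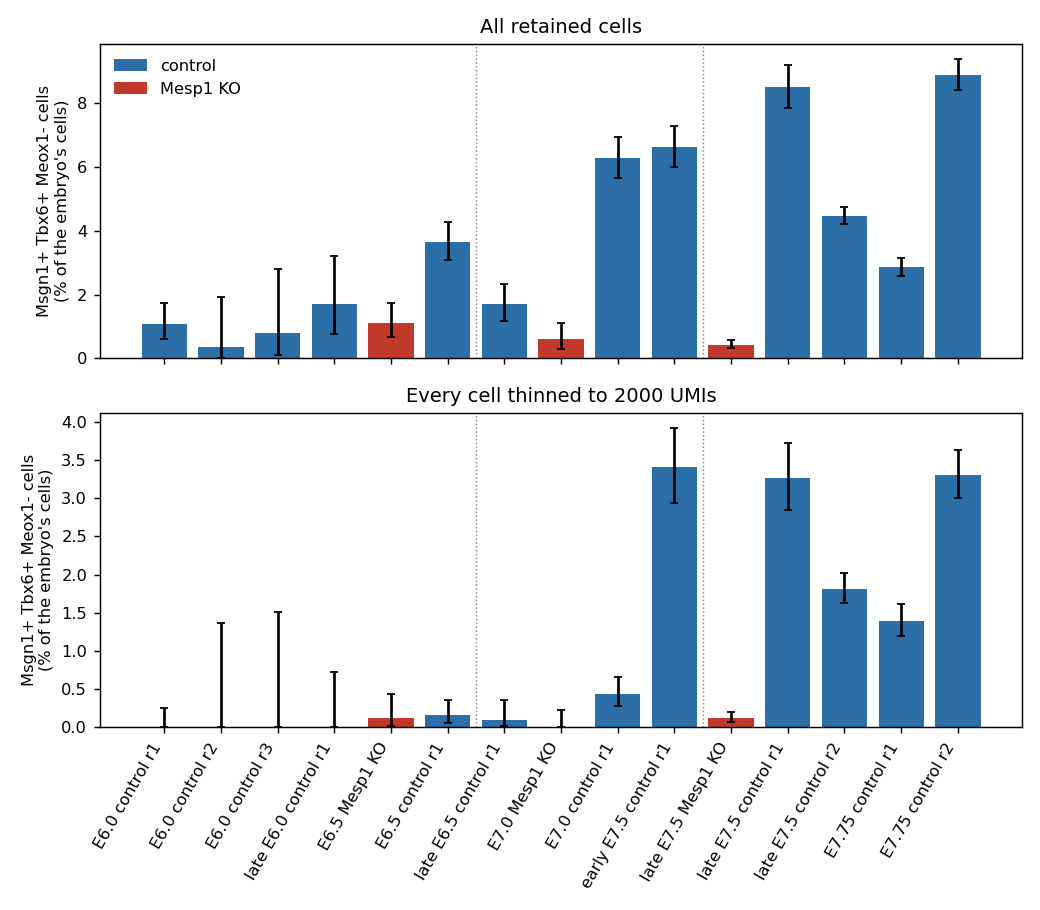
Share of Msgn1+ Tbx6+ Meox1- cells (percent of an embryo's cells) in 15 embryos, control in blue and Mesp1 KO in red, for all retained cells (top) and for cells thinned to 2000 UMIs (bottom), with exact 95% Clopper-Pearson intervals. The dotted lines part early, middle and late embryos, and the late KO bar of 0.436% stands below all 4 late controls, which lie between 2.86% and 8.88%.

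Cells next to this state were also counted. T+ Mixl1+ Tbx6- cells, with genes of the primitive streak, numbered 377 in the late KO (2.93% of its cells) and 157, 115, 42 and 218 in the late controls (2.32%, 0.516%, 0.282% and 1.63%). Meox1+ Tcf15+ Msgn1- cells, with genes of formed paraxial mesoderm, numbered 0 in the late KO and 115, 345, 65 and 620 in the late controls (1.70%, 1.55%, 0.437% and 4.62%). These counts were not thinned, at medians of 3823 UMIs in the other cells of the late KO and 3928 to 19750 in those of late controls, and Tcf15 also divided whole libraries by experiment, with 7.09 to 47.3 CPM in the 6 of experiment 7 and at most 2.35 CPM in the other 9, the late KO at 0.213 CPM among them. No late KO cell carried Msgn1, Tbx6 and Meox1 together, a combination found in 1304 cells of all embryos. The early E7.5 control had 210 of these and the late controls 165, 234, 26 and 664, the 26 in the shallow E7.75 control of experiment 5. Embryos up to E7.0 had 0 to 4 each, controls included.

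In late controls the cells carried a presomitic mesoderm profile. By a rule that ranked 1920 genes of at least 50 CPM by the median of their fold over all other cells of the same embryo, the 10 leading genes were Msgn1 (26.1-fold) and Tbx6 (20.3-fold), which the rule used, then Dll1 (11.04-fold), Hes7 (7.68-fold), the Wnt amplifier Rspo3 (6.48-fold), the uncharacterised 5730457N03Rik (6.08-fold), the streak factor T (5.46-fold), Hoxb1 (5.38-fold), the adhesion gene Pcdh19 (5.21-fold) and the posterior factor Cdx4 (4.98-fold). These folds describe chosen cells and carry no test. In the late KO cells Msgn1 stood 48.7-fold and Tbx6 62.8-fold above the other cells, Dll1 8.60-fold, Hoxb1 6.39-fold, T 6.02-fold, 5730457N03Rik 5.92-fold, Cdx4 4.24-fold and Rspo3 3.85-fold. Hes7 and Pcdh19 were at 0 UMIs in these cells, and with 0.468 and 0.858 CPM in the other cells of the embryo a fold like that of controls would be about a single UMI, so no fold can be read for them.

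The label held for controls from E7.0 onwards more clearly than for earlier embryos. Hes7 (chr11:69120404-69124055), the clock repressor, was at 0 CPM in the E6.0 (replicate 1) control, 26.8 at E6.5, 4.26 at late E6.5, 58.2 at E7.0 and 157 at early E7.5. It reached 120, 225, 198 and 224 CPM in the late controls. All 3 KO embryos were at 0 UMIs. The chosen cells of the youngest embryos and of the KO embryos thus carried Msgn1 and Tbx6 without detected Hes7, and they are not called presomitic mesoderm here.

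Dll1 (chr17:15367354-15376872), the Notch ligand of the presomitic mesoderm, increased more evenly with age in the control series, from 16.3 CPM at E6.0 through 62.1 and 57.1 at E6.5 and late E6.5 to 99.9 at E7.0 and 126 at early E7.5. Late controls had 129, 142, 188 and 128 CPM, all above the middle controls. The 3 KO embryos had 22.7, 19.9 and 27.5 CPM at E6.5, E7.0 and late E7.5, below every control from E6.5 onwards.

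In contrast to Dll1, Tdgf1 and Eomes were lower in the older controls. Tdgf1 (chr9:110939603-110946158), the Nodal co-receptor, was at 1595 CPM in the E6.0 control, 425, 837 and 284 at E6.5, late E6.5 and E7.0, and 4.62 at early E7.5. Eomes (chr9:118478212-118486132), a T-box factor of early streak cells, followed with 280, 96.0, 194, 49.95 and 5.39 CPM in the same order. The late controls had 12.8, 0.447, 0.556 and 0.119 CPM of Tdgf1 and at most 4.91 CPM of Eomes, so both were nearly off. Pou5f1, a factor of the epiblast, was lower only in some late controls, with 1196, 887, 850, 1072 and 859 CPM from E6.0 to early E7.5, and 959, 195, 59.4 and 478 CPM in the late controls.

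Aldh1a2 (chr9:71215789-71296243), the enzyme that makes retinoic acid, came on between E7.0 (3.21 CPM) and early E7.5 (252 CPM). Cyp26a1 (chr19:37697798-37701536), which breaks retinoic acid down, went from 111 to 14.8 CPM over the same pair of embryos. Cdx1 went there from 42.0 to 499 CPM and Cdx4 from 13.8 to 171 CPM. A single embryo stands at each of these ages, so these steps are values of single embryos.

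In the test of late against middle controls, edgeR's quasi-likelihood test called 0 of 12224 genes (0% higher and 0% lower at an adjusted p of 0.05), with 880 at an unadjusted p under 0.05, and DESeq2 called 12 (7 higher and 5 lower). Among the latter Eomes was lower in late controls, by a log2 change of -5.65 (SE 1.32, DESeq2 adjusted p = 0.0297), where edgeR gave -5.47 and an adjusted p of 0.68. Of 2895 genes averaging at least 50 CPM, 2.9% had every late control above every middle control and 10.2% the reverse. Of the listed pathway genes, Dll1 and Epha4, an ephrin receptor of the anterior presomitic mesoderm, were among those above, both by narrow gaps. The lowest late control had 128 CPM of Dll1 and 52.9 CPM of Epha4, and the highest middle control 126 and 52.0 CPM. Mesp1, Mixl1, Lhx1, Fgf3, Foxh1, Msx2, Snai1 and Cdh2, mostly genes of nascent mesoderm and of cell movement, were among those below. Such an order of few embryos also arises by chance, so these names are descriptions and nothing is read from them about the lists.

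**Figure D2:**
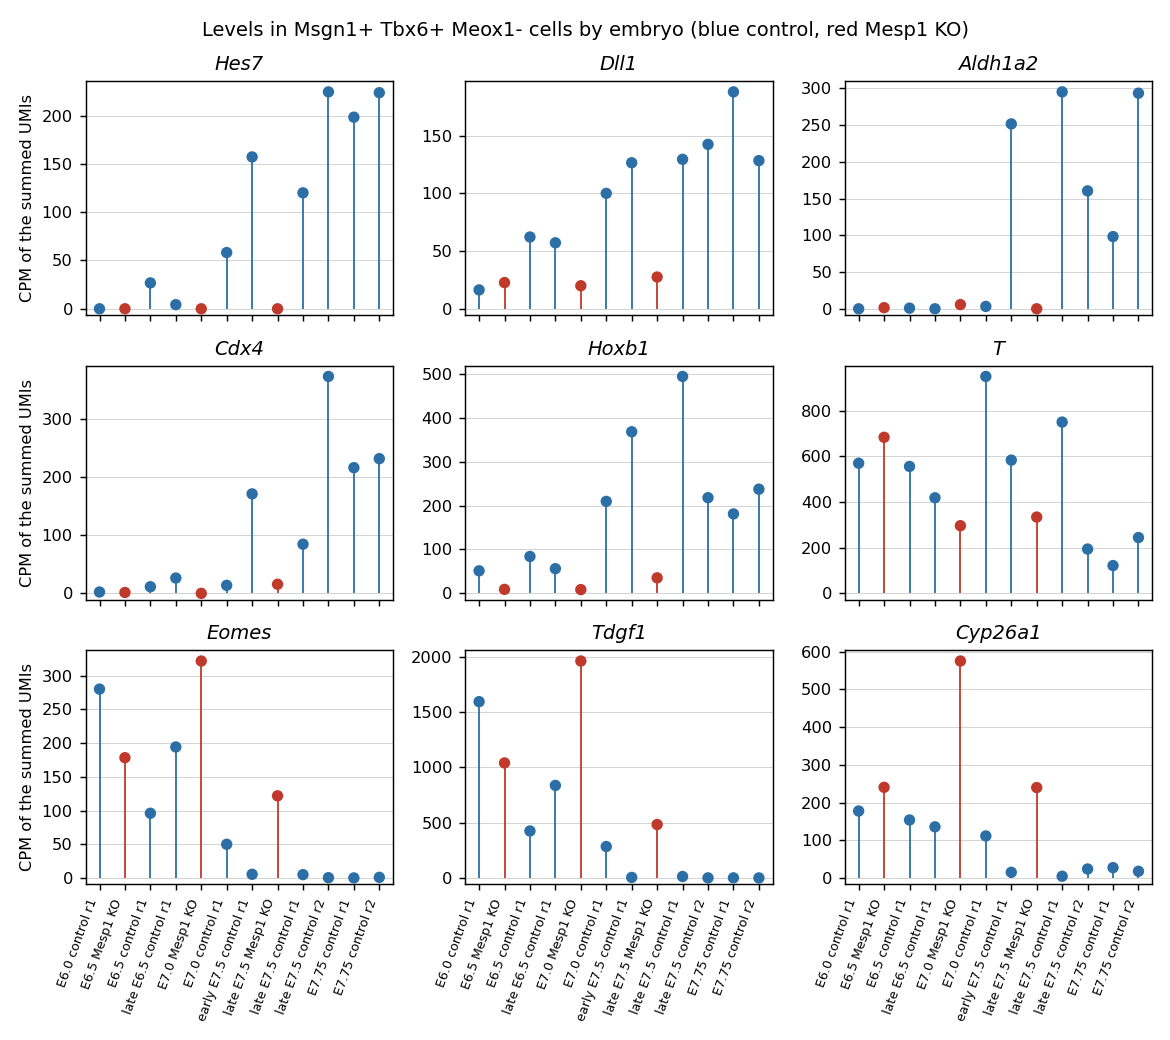
Level of 9 genes in the Msgn1+ Tbx6+ Meox1- cells of each embryo with at least 10 such cells (CPM of the summed UMIs), control in blue and Mesp1 KO in red, in order of age. Hes7, Dll1, Aldh1a2, Cdx4 and Hoxb1 stand high in late controls and low in the late KO, and Eomes, Tdgf1 and Cyp26a1 the reverse, while T overlaps.

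Between late KO and late control cells, edgeR's quasi-likelihood test called 0 of 12224 genes (0% higher and 0% lower), with 234 higher and 733 lower at an unadjusted p under 0.05. The genes that DESeq2 called were all higher in the KO. They were Dkk1, a gene of the Wnt list, the neuronal pentraxin Nptx2, the proteasome activator Psme2 and the S100 family protein S100a10. All but Dkk1 were named after their values were seen. Because the KO cells hold few UMIs, a gene is set apart below where the exact Poisson 95% interval of the KO level, which covers counting error only, lies outside all 4 late controls. Of 2646 genes averaging at least 50 CPM, 4.88% lay below every control by this measure and 3.51% above. By the KO value alone 35.3% lay below and 15.2% above, shares from which nothing is read, since they take no account of counting error. The log2 ratios here and below set the KO level against the control mean, with KO levels under 3 UMIs raised to 3 UMIs (11.8 CPM). The median log2 ratio was -0.33 over these genes, and the median edgeR log2 change over all genes tested was -0.37. A gene can reach this average through one genotype only, by the controls for genes such as Hes7 that are at or near 0 in the KO, or by the KO, as did 9 of the 93 genes above (Dkk1, Cyp26a1 and Tdgf1 among those listed), and such a gene had to differ. The counts and medians of the lists below are therefore descriptions.

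Among the 4 Notch and clock genes at that level, 2 lay below every control, with a median log2 ratio of -1.77 over these 4 and an edgeR median of -0.71 over the 14 genes tested from the list. Hes7 was at 0 of 254455 UMIs in the KO against 192 ± 49.3 CPM in controls (SD, n = 4), at least 16.3-fold lower with 3 UMIs as the limit. Dll1 was at 27.5 CPM (7 UMIs, interval 11.1 to 56.7) against 147 ± 27.96 CPM, 5.34-fold lower, with an edgeR log2 change of -2.28 (SE 0.95, adjusted p = 0.61). Dll3, a Notch modulator also expressed in presomitic mesoderm, was at 291 CPM, within the controls' 38.5 to 309. Hes1, a Notch target found in many tissues, was at 74.7 CPM against 15.5, 7.10, 14.4 and 22.4 CPM, above all 4.

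Of 8 factors of presomitic mesoderm and streak, 3 lay below every control and none above, with a median log2 ratio of -1.61, though the edgeR median over the 15 genes tested from this list was 0.29. The 3 were the Cdx genes, homeobox factors of posterior identity. Their KO levels rest on few UMIs, so the folds below are rough. Cdx1 was at 11.8 CPM (3 UMIs) in the KO against 241, 264, 160 and 499 CPM, and Cdx2 at 35.4 (9 UMIs) against 308, 316, 158 and 354. Cdx4 (chrX:103321398-103330592) was at 15.7 CPM (4 UMIs) against 84.7, 374, 217 and 232. These were 24.7-fold, 8.02-fold and 14.4-fold lower than the control means, with edgeR adjusted p of 0.66, 0.54 and 0.67. T (chr17:8434423-8442496), the factor that defines the streak, did not follow them. It was at 334 CPM in the KO, between the 750 CPM of the first late E7.5 control and the 194, 122 and 244 CPM of the others.

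The T-box factor Eomes and the LIM homeobox factor Lhx1, on the same list but under 50 CPM on average, lay above every control. Eomes was at 122 CPM (31 UMIs, interval 82.8 to 173) against 4.91, 0.335, 0 and 0.873 CPM. Lhx1 (chr11:84518284-84525535), a factor of early mesendoderm, was at 169 CPM against 15.3, 21.2, 10.6 and 21.6 CPM. The edgeR log2 changes were 6.44 (SE 1.74) and 3.50 (SE 0.91), both with an adjusted p of 0.52. Mixl1 (chr1:180693043-180697034), a homeobox gene of the streak, was at 169 CPM, beside 169 CPM in the first late E7.5 control and 28.4, 11.7 and 57.1 CPM in the others, so it did not stand apart.

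Nodal and Bmp genes were mixed, with 2 of 7 below every control and 1 above. The median log2 ratio was -0.64 over these 7, and the edgeR median over the 18 genes tested was -0.078. The gene above was Tdgf1, among the 7 only through its KO level, at 483 CPM (123 UMIs, interval 402 to 577) against a highest control of 12.8 CPM, with an edgeR log2 change of 7.31 (SE 2.01, adjusted p = 0.52). Those below were Id2 and Id3, inhibitors of bHLH factors and targets of Bmp signalling. Id3 was at 244 CPM against 532 ± 114 CPM (SD, n = 4).

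Of 4 retinoic acid genes, 3 lay below every control, and Cyp26a1, which is among the 4 only through its KO level, lay above. The median log2 ratio was -3.84 over these 4, and the edgeR median over the 10 genes tested was -2.63. Aldh1a2 was at 0 UMIs against 295, 161, 98.3 and 294 CPM, at least 18.0-fold lower. Crabp1 and Crabp2, which bind retinoic acid inside cells, were at 66.8 and 11.8 CPM against control means of 807 ± 480 and 201 ± 50.8 CPM (SD, n = 4). Cyp26a1 was at 240 CPM against 4.46, 23.7, 27.2 and 17.6 CPM, 13.1-fold above the control mean, with an edgeR log2 change of 3.90 (SE 1.03, adjusted p = 0.52). In the late KO the enzymes that make and clear retinoic acid thus lay on opposite sides of the controls. The E6.5 KO had 240 CPM of Cyp26a1 and 1.51 CPM of Aldh1a2, and the E7.0 KO 575 and 5.70 CPM. In both, Cyp26a1 lay above the controls of the same stage. Their Aldh1a2 levels rest on 1 and 2 UMIs. The E6.0 (replicate 1) and late E6.5 controls were at 0 UMIs of Aldh1a2, so in these KO embryos it did not lie below the controls.

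Wnt genes showed 1 of 6 below and, through its KO level alone, Dkk1 above, with a median log2 ratio of -0.68 and an edgeR median of -0.51 over the 21 genes tested. Rspo3 (chr10:29452416-29535867) was at 244 CPM, 1.53-fold below controls of 321, 400, 388 and 387 CPM. Dkk1 (chr19:30545863-30549665), a secreted Wnt antagonist and target, was at 185 CPM against 47.2, 59.7, 29.4 and 42.5 CPM. Its edgeR log2 change was 2.25 (SE 0.44, adjusted p = 0.50) and that of DESeq2 2.41 (adjusted p = 0.0262). Among ligands below the 50 CPM level, Wnt3 was at 58.9 CPM against at most 11.5, and Wnt3a, the later ligand of the tail end, at 11.8 against 78.2, 41.3, 17.8 and 53.6 CPM with an interval that overlaps the controls. The effectors Ctnnb1 and Lef1 were at 189 and 122 CPM, and neither stood apart.

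Among 6 Fgf genes, 1 lay below every control and 1 above, with a median log2 ratio of -0.80 and an edgeR median of -0.56 over the 18 genes tested. Fgf8, the ligand of the posterior gradient, was at 212 CPM (interval 159 to 277) against 150, 126, 122 and 139 CPM. Etv4, a transcription factor switched on by Fgf signals, was at 7.86 CPM (2 UMIs) against 55.6, 110, 73.3 and 109 CPM. Dusp6, a phosphatase that is a further target of the pathway, was at 58.9 CPM against 59.7 ± 13.3 CPM (SD, n = 4), so only the first of these targets stood apart.

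**Figure D3:**
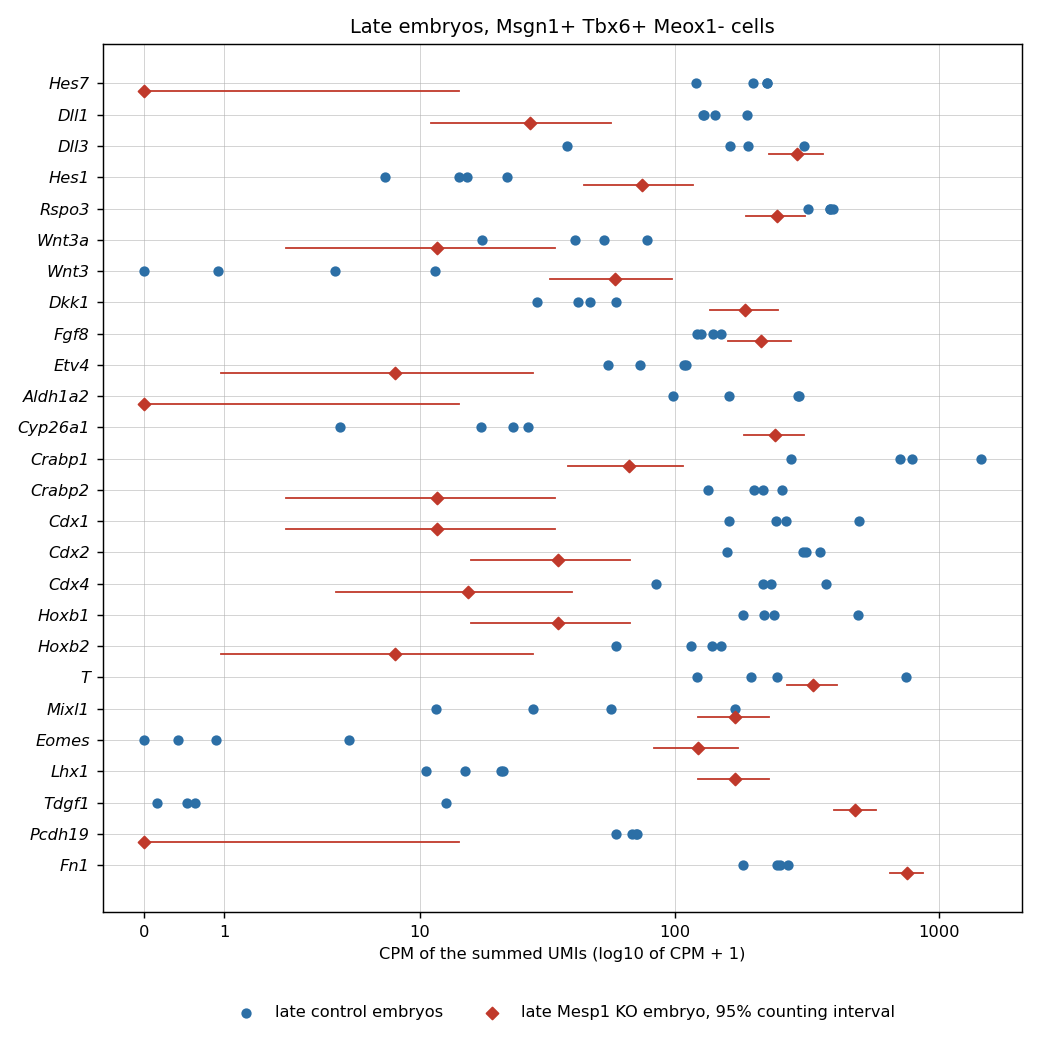
Level of 26 pathway genes in late Msgn1+ Tbx6+ Meox1- cells (CPM of the summed UMIs, on a log10 scale of CPM + 1). Blue points are the 4 late control embryos, and red diamonds are the late Mesp1 KO embryo with its exact Poisson 95% interval. Hes7, Aldh1a2 and Pcdh19 are at 0 in the KO, and Tdgf1 at 483 CPM lies farthest above its controls.

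Movement and adhesion genes were divided, with 1 of 7 below, 1 above, a median log2 ratio of 0.09 and an edgeR median of 0.30 over the 17 genes tested. Pcdh19 (chrX:133582860-133688987), a protocadherin, was at 0 UMIs against 70.9, 59.3, 68.3 and 71.7 CPM, at least 5.73-fold lower. Fn1, the fibronectin of the mesoderm matrix, was at 758 CPM against 182, 252, 269 and 243 CPM, 3.21-fold above the mean. Snai1, which drives cells out of the streak epithelium, was at 161 CPM against 135 ± 31.2 CPM (SD, n = 4). Rac1, a GTPase of cell movement, belongs to this list and divides libraries by experiment, as given above.

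Both genes of the anterior presomitic mesoderm and somite list at the 50 CPM level, Aldh1a2 and Epha4, lay below every control, and the edgeR median over the 9 genes tested was -1.44. Epha4 was at 19.6 CPM against 60.2 ± 6.87 CPM (SD, n = 4). Mesp2, the segment boundary gene next to Mesp1 on chromosome 7, was at 11.8 CPM (3 UMIs) in the late KO and at 6.97, 0.95, 0 and 0.476 CPM in late controls. The somite factor Tcf15 was at 0 UMIs in the KO and at 0 to 10.5 CPM in controls.

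Hox genes give cells their position along the trunk and come on from the start of each cluster to its end. In the late KO cells 32 of 38 Hox genes (84.2%) were at 0 UMIs, where 75% of all 38292 genes were too. Of all genes, 17537 were at 0 in every late control as well, but only 1 of the Hox genes was. The 75% thus includes many genes not seen in these controls. The list summed to 58.9 CPM against 799 to 1073 CPM in late controls. Of 3 Hox genes at the 50 CPM level 2 lay below every control. The median log2 ratio was -2.999, with Hoxb2 and Hoxb8, at 2 and 0 UMIs in the KO, raised to 3 UMIs. The edgeR median was -8.89 over the 27 genes tested, most of them at 0 UMIs in the KO. Hoxb1 (chr11:96365752-96368256), first in its cluster, was at 35.4 CPM (9 UMIs) against 495, 218, 181 and 238 CPM. Hoxb2 was at 7.86 CPM (2 UMIs) against 150, 115, 59.4 and 139 CPM, a control mean of 116 ± 40.3 CPM (SD, n = 4). Since 3 UMIs in the KO stand for 11.8 CPM, a lower level was not detectable at this depth for the many Hox genes below that value in controls.

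**Figure D4:**
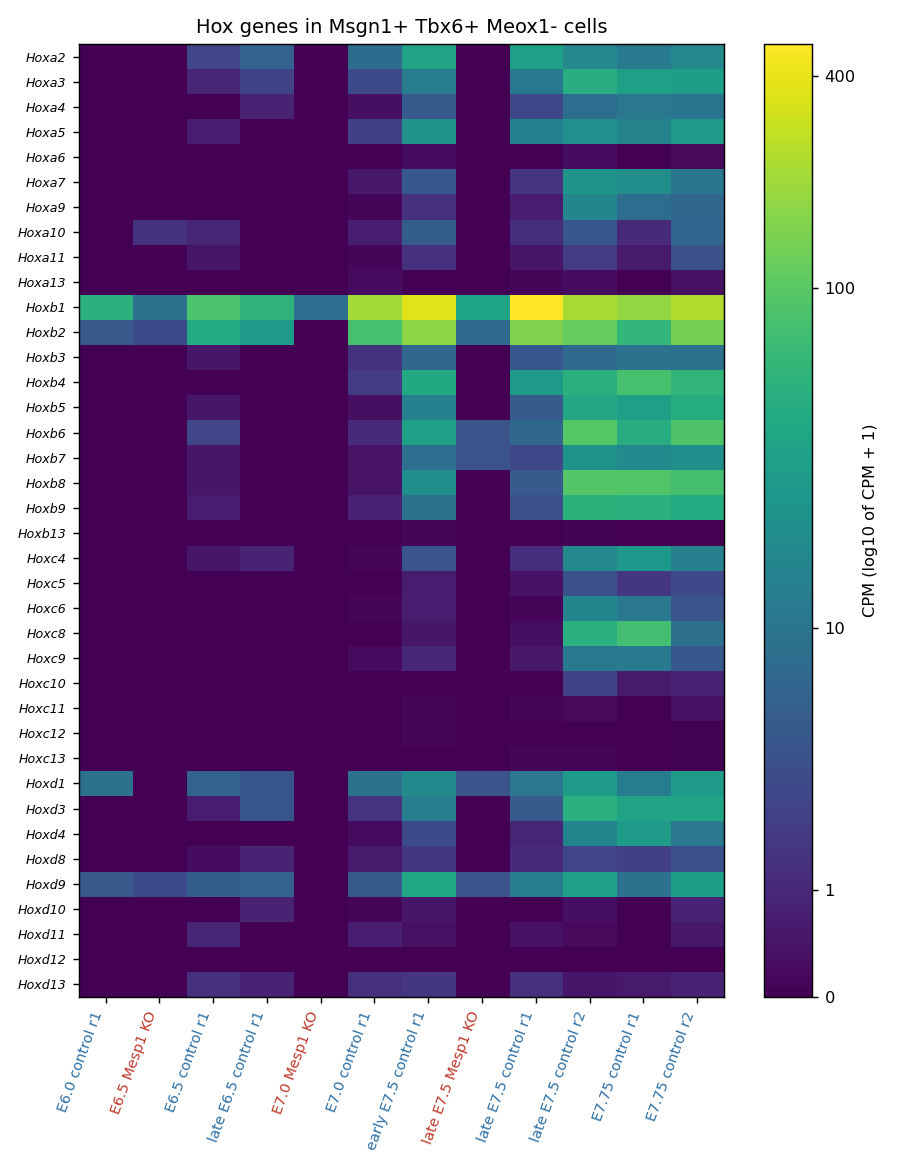
Heat map of 38 Hox genes (rows) in the Msgn1+ Tbx6+ Meox1- cells of 12 embryos in order of age (columns, control names in blue and Mesp1 KO names in red), coloured by CPM on a log10 scale of CPM + 1. In controls Hoxb1 is above 0 from E6.0, Hoxb4 from E7.0 and Hoxc8 from early E7.5, while Hoxd9, a later member, is already above 0 at E6.0. The late KO column shows 6 genes above 0.

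The genes were also counted per cell, in cells chosen at their full depth and then thinned, so that the choice itself was not made at equal depth (choosing after thinning left 13 late KO cells). With each cell thinned to 2000 UMIs, Hes7 was found in 0% of 52 late KO cells and in 19.4%, 33.9%, 30.6% and 33.3% of late control cells, against 0% and 63.1%, 79.1%, 47.3% and 77.6% before thinning. Tdgf1 was found in 55.8% of thinned KO cells and in 2.27%, 0%, 0.26% and 0% of control cells. Eomes was found in 21.2% and in at most 1.22%. Among the cells with visceral endoderm genes, not thinned, Hes7 was found in 0.105% in the late KO and in 1.40% to 2.90% in the late controls, and Tdgf1 in 3.05% and in at most 0.117%. Before thinning, 20 of the 56 KO cells carried Eomes and Tdgf1 together (35.7%), against at most 2.26% in a late control. T was in 39 KO cells (69.6%) and in 96.0%, 70.7%, 34.4% and 81.5% of the cells of the controls.

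**Figure D5:**
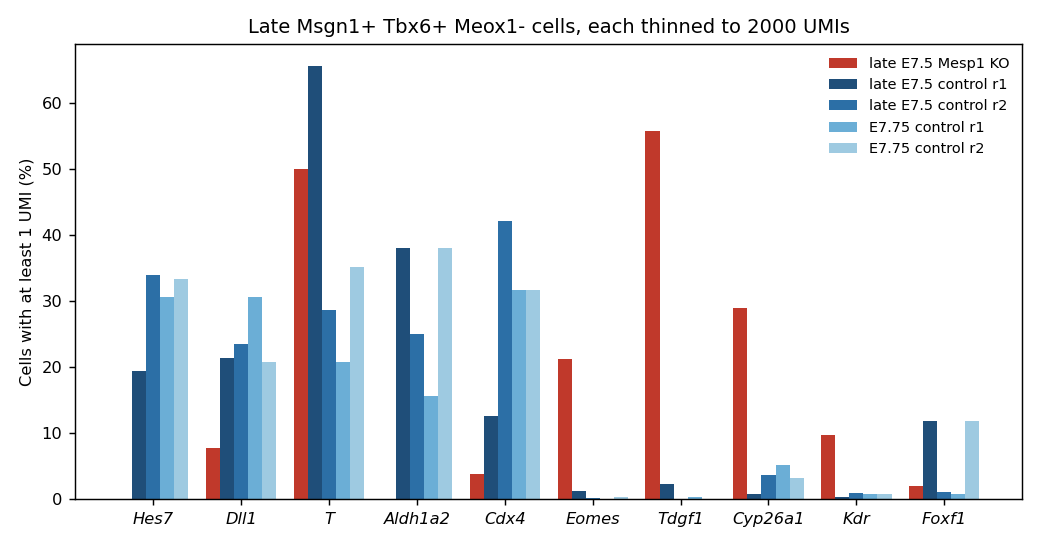
Share of late Msgn1+ Tbx6+ Meox1- cells with at least 1 UMI of each of 10 genes (percent, cells thinned to 2000 UMIs), late Mesp1 KO in red and the 4 late controls in blues. Hes7 and Aldh1a2 are at 0% in the KO, and Tdgf1 reaches 55.8% there against 2.27% at most in a control.

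The late KO cells were also set beside the time course. Of the listed genes, 8 were lower in every late than in every middle control. For these the KO was within the late range for 3, within the middle range for 1 (Lhx1) and between the ranges for 2. The 2 were Mixl1, at 169.0 CPM beside a highest late control of 168.8 CPM, and Snai1, at 161 beside 158 CPM, both within counting error. The KO was past a range for the other 2, Mesp1, the disrupted gene, below the late controls, and Cdh2 above the middle ones. Cdh2 was at 134 CPM (34 UMIs) beside a highest middle control of 127 CPM, also within counting error. Of the 5 that were higher in late controls, 3 genes of blood and visceral endoderm (Hbb-bh1, Ttr and Rbp4) were within the late range. The other 2, Dll1 and Epha4, lay below the middle controls. Dll1 was at 27.5 CPM against a lowest middle control of 57.1 CPM, and Epha4 at 19.6 CPM (5 UMIs) against 33.2 CPM, the latter within counting error. These places were not set beside those of all genes and are descriptions. Tdgf1, at 483 CPM, lay between the E7.0 and late E6.5 controls, Cdx1 and Hes7 below the E7.0 control, and Cdx4, at 15.7 CPM, beside its 13.8 CPM.

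Genes of other tissues were measured because shared droplets or free RNA can carry them. The blood globin Hba-x was at 833 CPM in the KO cells and at 0, 490, 10.6 and 11.5 CPM in controls, and at 3494 CPM in the other cells of the KO embryo against 2.55, 2864, 417 and 308 CPM. The 5 blood genes summed to 1572 CPM in the KO cells and to 4.38 to 1233 CPM in controls. The 6 endothelial genes summed to 114 CPM against 18.1 to 29.6 CPM, with Kdr at 35.4 CPM (9 UMIs) and Etv2, a factor of blood vessel precursors, at 58.9 CPM (15 UMIs). Summed levels of the cardiomyocyte (78.6 CPM), lateral plate (200.4 CPM), visceral endoderm (279 CPM), definitive endoderm (70.7 CPM) extra-embryonic ectoderm (228 CPM), epiblast (562 CPM) and notochord (3.93 CPM) lists were within the late controls' ranges, and that of surface ectoderm (23.6 CPM) was below. The neural list summed to 3.93 CPM, a single UMI, and the germ cell list to 0 against 1.11 to 3.24 CPM in controls, levels too low to compare at the depth of the KO. The part of these cells or of free RNA in the levels above was not tested.

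Whether these differences belonged to the Msgn1+ Tbx6+ cells was asked by comparing them with the genotype difference in all other cells of the same late embryos. edgeR's quasi-likelihood test of that interaction called 0 of 17166 genes (0% higher and 0% lower), with 973 at an unadjusted p under 0.05, and DESeq2 called 21 (1 higher and 20 lower). The other cells of the late KO also had less Hes7 (0.468 CPM against 19.5, 13.96, 27.9 and 27.1) and Aldh1a2 (0.331 CPM against 38.6, 85.6, 63.0 and 158), and more Tdgf1 (105 CPM against at most 3.86) and Eomes (50.4 CPM against at most 9.19). For Fn1 the difference was wider in the Msgn1+ Tbx6+ cells by 1.06 on the log2 scale (SE 0.13, edgeR adjusted p = 0.25), and for Eomes by 2.49 (SE 0.55, adjusted p = 0.42).

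Summed over whole late embryos, which does not use the rule, Msgn1 was at 9.37 CPM in the KO against 73.7, 36.2, 28.1 and 101 CPM in controls, and Tbx6 at 5.47 against 45.4, 17.0, 22.2 and 37.9 CPM. Hes7 was at 0.466 CPM against 27.9, 24.5, 32.9 and 45.3 CPM, and Dll1 at 3.32 against 23.3, 15.4, 19.96 and 29.9 CPM. In sums over embryos, fewer cells of a type and less RNA per cell cannot be told apart. None of these passed edgeR's test across 18290 genes, which called 6 genes higher in the KO (0.0328%) and none lower (0%), with 1412 at an unadjusted p under 0.05 and 122 called by DESeq2, of which 68 were higher and 54 lower. With the experiment as a covariate edgeR called 1, and without each control in turn it called 2 to 338, the latter (318 higher and 20 lower) without the E7.75 control of experiment 5 and the former without the other E7.75 control. The 6 were Asb4, Gm5771, L1cam, Ndufa4l2, Prss1 and Stmn4, none of them in the lists above, and Ndufa4l2 and Asb4 had 8 and 10 UMIs in the KO's Msgn1+ Tbx6+ cells.

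The E7.0 KO supplied 10 Msgn1+ Tbx6+ cells with 351000 UMIs, and part of the late differences was seen in them too. This embryo belongs to experiment 8 and the 3 middle controls to experiment 7, so genotype and experiment cannot be told apart at this stage. Tdgf1 was at 1963 CPM against 837, 284 and 4.62 CPM in the middle controls, in order of age, Lhx1 at 715 against 240, 42.8 and 30.2 CPM, and Cyp26a1 at 575 against 136, 111 and 14.8 CPM. Cdx2 and Cdx4 were at 0 UMIs, and Hoxb1 was at 8.55 CPM against 56.3, 210 and 368 CPM. Rspo3 was at 65.5 CPM against 208, 173 and 338 CPM. edgeR called 1 of 12224 genes, higher in the KO (0.00818%, and 0% lower), with 937 at an unadjusted p under 0.05. Fitted to these 4 embryos alone it called 43, of which 5 were higher and 38 lower. The gene called over all embryos was Gm6166, at 191 CPM against 0.852, 0.777 and 1.21 CPM, which also stood at 147 to 235 CPM in 5 whole libraries of both genotypes and at 1.18 to 5.57 CPM in the other 10. DESeq2 called 2 genes, Gm6166 and Hand1, the latter lower in the KO.

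Taking all stages with stage as a covariate, edgeR called 0 of 10741 genes (0% in either direction), with 1322 at an unadjusted p under 0.05, and DESeq2 called 158 (62 higher and 96 lower). The E6.5 KO, with 19 cells, resembled early controls in several of the genes above, having 178 CPM of Eomes and 1040 CPM of Tdgf1 against 280 and 1595 CPM in the E6.0 control and 96.0 and 425 CPM in the E6.5 control. It had 9.07 CPM of Hoxb1 against 51.4 and 84.1 CPM in those controls. Its levels of Fn1, Fgf8 and Cyp26a1 lay above every early control.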

How the data were processed

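The authors aligned reads to mm10 with eGFP and Ai14 added and deposited raw UMI counts per gene and cell barcode from Cell Ranger 3.0.2, one library per embryo, without normalization. Genotype and age came from the labels, and stages and experiments from the labels and the methods of the paper. The members and gene lists were chosen with earlier results of these data known. Barcodes under 10% mitochondrial UMIs, under 50000 UMIs and with 200 to 7000 genes were retained (93701 of 99474).

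Counts were summed per embryo over the chosen cells, where an embryo had at least 10 (12 embryos), and given as counts per 1000000 (CPM). Embryos, not cells, are the replicates. Sums were tested by edgeR 4.0.16 (R 4.3.3, filterByExpr, TMM, glmQLFit and glmQLFTest, fitting each stage and genotype as a mean), adjusted by Benjamini-Hochberg over all genes tested with a threshold of 0.05. A lone KO embryo was assumed to vary like the controls. The p-values then measure only the spread between these embryos. An SE given with edgeR is the size of the log2 change divided by the square root of the test's F statistic. That of DESeq2 is its own estimate. Shares were compared by exact permutation of embryos. The scripts were tested on simulated data. DESeq2 1.42.0, no filter on low counts, thinning to 2000 UMIs, doublets left out (a share of 0.8% per 1000 barcodes, by score against simulated pairs), other rules for choosing cells, the experiment as a covariate, fewer controls and each embryo left out in turn were alternatives. Intervals are at 95% and cover counting error only.

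Named genes are members of the lists (presomitic mesoderm and streak, Notch, Wnt, Fgf, retinoic acid, Nodal and Bmp, anterior presomitic mesoderm and somite, movement, Hox, and markers of other tissues), the 10 leading genes and genes called by a test. Motif letters were searched in RefSeq promoters of GRCm38.p6. Results for 1 gene are not reported here.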

Additional observations from a re-analysis of the deposited data

Results flagged for a closer look

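A gap test (Dixon, at its 95% critical value) was made on 44 sets of control values, where chance alone flags about 1 in 20 sets. All were sets of the 4 late controls except the share in the 5 early controls. It singled out 4 values, all of genes in the Msgn1+ Tbx6+ cells of late controls. The first late E7.5 control had 321 CPM of Rspo3 against 387 to 400 CPM in the other 3, 12.8 CPM of Tdgf1 against 0.119 to 0.556 CPM, and 2.59 CPM of the endothelial receptor Kdr against 7.34 to 7.78 CPM. The E7.75 control of experiment 5 had 194 CPM of Ctnnb1 against 339 to 361 CPM. The late KO lay at 244 CPM of Rspo3, 483 CPM of Tdgf1, 35.4 CPM of Kdr and 189 CPM of Ctnnb1, so that for Ctnnb1 it stood beside the shallow control of its own experiment.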

How the results depend on the processing

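The late difference in share was -2.42 points against the experiment 5 control alone and -1.27 after thinning as well (a setting chosen after seeing the data), and leaving out each late control gave -6.85 to -4.84. Over stages it was -8.69 (exact permutation p = 0.025) with at least 1 UMI of either gene, -1.18 (p = 0.175, exact permutation) when thinned, and -4.998 to -2.32 (exact permutation p of 0.04 to 0.25) without each embryo. Genes called in the late cells were 4 by DESeq2, 1 with either gene and 0 without each control. In the middle cells they were 2 by DESeq2, 0 when thinned, 43 with only the embryos compared (5 higher and 38 lower), 0 with either gene, 2 without the high Rps2-ps13 libraries (chosen after seeing the data) and 1 to 2 without each control. Late against middle controls gave 12 by DESeq2, 1 with no filter and 0 to 4 without each embryo. All stages gave 158 by DESeq2, 41 with no filter, 10 with either gene and 0 to 43 without each embryo, the 43 without the E7.75 control of experiment 5. Whole embryos gave 122 by DESeq2, 10 when thinned, 1 with the experiment as a covariate, 108 with late E7.5 controls only and 2 to 338 without each control, the 338 without that same E7.75 control. The interaction gave 21 by DESeq2, 13 with no filter, 84 when thinned and 0 to 31 without each control, the 31 without the first late E7.5 control. The causes were not tested.

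Of 42 named genes, 35 kept the direction of their late log2 change under all 13 alternatives. It reversed for Dll3 (-0.31) and 5730457N03Rik (-0.088) with the experiment as a covariate, for T (-0.15) and Pou5f1 (-0.014) with late E7.5 controls only, for Dusp6 (-0.25) and Cdh2 (-0.17) when thinned, and for Hand1 when thinned (0.056), with the covariate (0.81) and with either gene (0.50). No paired analysis was possible because replicate numbers restart at each age, so that the groups compared share fewer than 2 numbers. Depth limits the late KO, where 254455 UMIs in 56 cells leave 3 UMIs at 11.8 CPM.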

Other observations

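DESeq2 called 12 genes between late and middle control cells, none of which edgeR called. Eomes, Tdgf1, Gata4 and Hesx1 are on the lists, and the others were named after their values were seen. The calcium-binding protein S100g was at 6.52 to 29.7 CPM in late and at most 0.989 CPM in middle controls, the matrix protein Smoc1 at 13.8 to 72.8 against 0.852 to 7.25 CPM, and the growth factor Ptn at 8.04 to 90.6 against 3.41 to 8.02 CPM. The transcription factors Foxb1 and Hesx1 were at 33.4 to 71.1 against 4.26 to 20.9 CPM and at 4.11 to 10.1 against 0 to 1.07 CPM. In the late KO cells Smoc1, Ptn and Foxb1 were at 0 UMIs, though the lower end of Ptn in late controls and all values of Hesx1, also at 0, are under the 11.8 CPM of 3 UMIs and could not be told from 0 at this depth. Others were within the late controls' range in the KO: S100g at 11.8 CPM, Mt1 at 15.7 (late controls 14.999 to 68.0), Apoc2 at 110.04 (58.3 to 170) and Anpep at 3.93 CPM (0.556 to 4.29). Optc was at 7.86 CPM (2 UMIs) against 0 to 0.179 CPM in late and 0 to 11.1 CPM in middle controls. Gata4, a factor of endoderm and heart that was lower in late controls (3.89 to 16.6 against 25.5 to 53.8 CPM), was at 23.6 CPM.

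Of the genes that DESeq2 called higher in late KO cells, S100a10 was at 1069 CPM against 126 to 339 CPM in late and 312 to 524 CPM in middle controls, Psme2 at 314 against 102 to 165 and 202 to 251 CPM, and Nptx2 at 58.9 against 7.22 to 16.3 and 23.7 to 40.9 CPM.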
